A study of Mus musculus with 17 samples.

Results

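The 8 genes described here encode the neural cell adhesion molecules Ncam1 and Ncam2, the L1-family proteins L1cam, Chl1 and Nrcam, the contactin Cntn2, and the polysialyltransferases St8sia2 and St8sia4. They were taken by symbol from the 15355 genes of the deposited table, and all 8 were present in it. Presence in that table is the only measured value they were chosen by. They were nevertheless proposed with earlier results of these data known, so the p-values below describe single genes and lend no support to the group. RNA was pulled down through HA-tagged ribosomes from the mediobasal hypothalamus of POMC RiboTag mice, whose tag marks neurons that make pro-opiomelanocortin (POMC), the precursor of an appetite-suppressing peptide. By the labels, all 17 libraries come from such mice and differ in the dam's diet and the day after birth. Offspring of dams on a high-fat diet (HFD, 45%) gave 4 libraries at postnatal day 21 (P21) and 5 at day 0 (P0), and offspring of dams on standard chow gave 3 at P21 and 5 at P0. Dams started the diet at 6 weeks of age, were mated 4 weeks later and stayed on it until day 21. The labels call the samples biological replicates but do not name the Cre line, the sex, the litter or any pooling, so the p-values reflect the scatter of these libraries only. A RiboTag allele stays switched on once its driver has been active, and Pomc is also transiently active in precursors of other arcuate neurons.

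Polysialic acid is a long, negatively charged sugar chain that St8sia2 and St8sia4 build mainly on Ncam1, where it loosens adhesion and lets young neurons migrate, extend axons and remodel contacts. In the mouse brain St8sia2 is known as the enzyme of development and St8sia4 as the one that persists in the adult. L1cam, Chl1 and Nrcam are immunoglobulin-domain proteins that bind ankyrin in the membrane skeleton and guide growing axons, while Cntn2 (TAG-1) is held to the membrane by a lipid anchor and later sits beside the nodes of myelinated axons.

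St8sia2 lies at chr7:73939119-74013690 and St8sia4 at chr1:95587682-95667571, both on the minus strand (mm10, GENCODE M21). Because the results turn on this pair of enzymes, the 250 bases before each RefSeq start are printed 5′ to 3′ on the gene's strand (RefSeq, GRCm38.p6; chr7:74013683-74013932 and chr1:95667595-95667844), with each GC box (GGGCGG on either strand) in capitals.
St8sia2: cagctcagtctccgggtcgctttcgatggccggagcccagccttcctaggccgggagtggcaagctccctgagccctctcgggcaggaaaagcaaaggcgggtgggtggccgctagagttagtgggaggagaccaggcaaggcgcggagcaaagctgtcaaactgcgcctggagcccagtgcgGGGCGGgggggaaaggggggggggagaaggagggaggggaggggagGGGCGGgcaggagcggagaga
St8sia4: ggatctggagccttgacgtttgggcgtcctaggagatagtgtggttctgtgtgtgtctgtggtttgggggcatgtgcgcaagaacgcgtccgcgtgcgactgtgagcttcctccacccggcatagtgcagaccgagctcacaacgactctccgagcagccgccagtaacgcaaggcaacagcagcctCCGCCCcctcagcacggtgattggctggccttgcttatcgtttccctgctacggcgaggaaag
The St8sia2 window held 2 GC boxes and was 68.8% G and C with 15 CpG, and the St8sia4 window held 1 GC box and was 60.4% G and C with 19 CpG. Over 32851 RefSeq promoter windows of the same length the medians were 52.4% and 6 CpG, and 32.7% held a GC box. Neither window held the TATA box letters TATAAA (12.4% of all windows on either strand) or the SOX motif AACAAAG (5.03%). St8sia4 also held 1 CCAAT box (letters CCAAT, 33.9% of windows) and 1 E-box (CANNTG, 66.2% of windows), and St8sia2 held neither. These are matches of letters in a window, not measured sites.

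Depth was 22.4 to 37.1 M reads counted to genes per library. Pomc, the check of the pulldown, measured 9818, 8268, 7460.1 and 8528 normalised units in HFD P21, 4679, 3878 and 12069.6 in chow P21, 90.7, 246, 102, 181 and 1057 in HFD P0, and 146, 224, 657, 891 and 1308 in chow P0. It was thus low and uneven at birth, with 1 HFD library (replicate 5) and 3 chow libraries (replicates 3 to 5) well above the rest. Chow P21 replicate 3 stood apart by its Pomc and by the highest summed signal of 8 myelinating oligodendrocyte markers, 17822 units against 7970 and 11819 in the other chow P21 libraries. Markers of immature neurons, myelin, microglia and vessels were all present in the pulldowns, and no marker in the table was at 0 in every library of a group. In such bulk RNA, fewer cells of a type and less RNA per cell cannot be told apart.

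The comparison of P21 with P0 asks how these genes changed between birth and weaning. St8sia2 measured 6.21, 9.25, 8.31 and 11.9 units in HFD P21 and 9.86, 7.71 and 6.07 in chow P21, against 304, 395, 343, 294 and 334 in HFD P0 and 324, 244, 307, 331 and 348 in chow P0. Every P21 library lay far below every P0 library, and the diets were interleaved at both ages. On log2(value + 1) St8sia2 fell by 5.10 ± 0.18 in HFD offspring (SE, 4 against 5 libraries, limma adjusted p = 2.45e-10) and fell by 5.14 ± 0.18 in chow offspring (3 against 5, limma adjusted p = 6.77e-09). By size of change it ranked 14 of 14245 genes tested in HFD offspring and 10 of 14549 in chow offspring. The low P21 values still rested on at least 177 reads per library in HFD and 132 in chow.

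**Figure D1:**
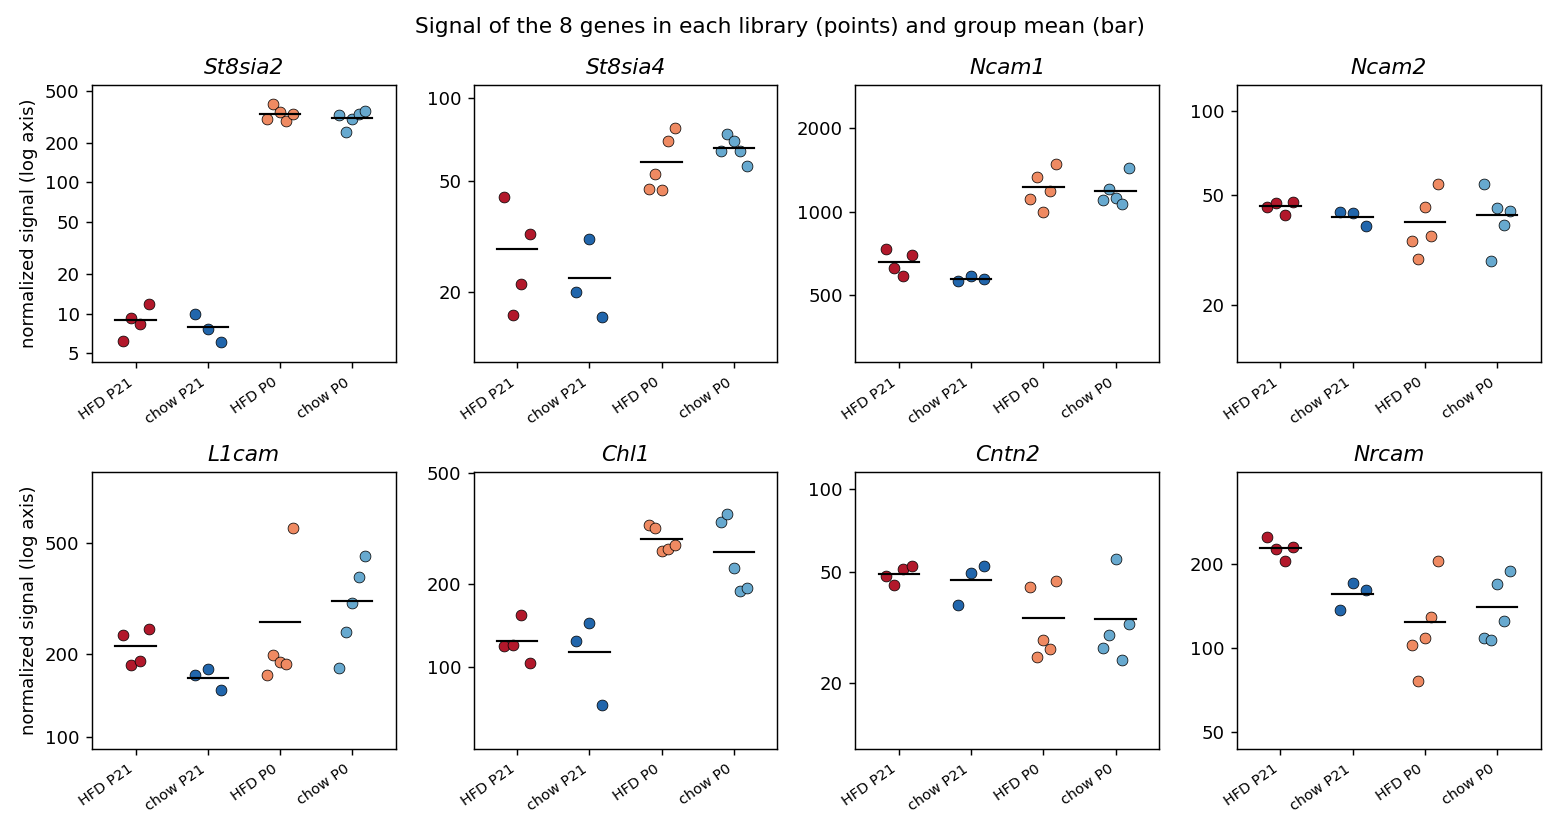
Normalised signal of the 8 genes in each library (points, log axis) with the group mean (bar), for HFD P21, chow P21, HFD P0 and chow P0. St8sia2 lies at 6.07 to 11.9 units in the P21 libraries and at 244 to 395 units in the P0 libraries, while Ncam2 and Cntn2 overlap across all groups.

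St8sia4, the other polysialyltransferase, measured 44.0, 16.5, 21.3 and 32.3 units in HFD P21 and 19.99, 31.0 and 16.3 in chow P21, against 46.9, 53.1, 46.5, 69.9 and 77.6 in HFD P0 and 64.4, 74.1, 69.8, 64.2 and 56.9 in chow P0. All P21 libraries lay below all P0 libraries, but in HFD offspring the highest P21 value came close to the lowest P0 value. St8sia4 fell by 1.08 ± 0.27 in HFD offspring (SE, limma adjusted p = 0.00401) and fell by 1.56 ± 0.20 in chow offspring (limma adjusted p = 9.34e-05).

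The balance of the enzymes turned over between the ages. Per kb of the principal transcript, St8sia2 made up 25.9 ± 9.85% of the summed signal of both enzymes in HFD P21 (SD, n = 4) and 26.8 ± 6.58% in chow P21 (n = 3), against 85.0 ± 3.68% in HFD P0 (n = 5) and 82.3 ± 3.48% in chow P0 (n = 5). The summed level was 6.95 and 5.63 units per kb in HFD P21 and chow P21, against 73.2 and 70.1 units per kb in HFD P0 and chow P0. At P0 St8sia2 exceeded St8sia4 per kb in every library, by 4.23 to 7.48 times in HFD and 3.31 to 6.14 times in chow, and at P21 it was below St8sia4 in every library. That P21 order depends on which length is used, because annotated exons of St8sia4 cover 20.1 kb while its principal transcript is 5.39 kb. Over all annotated exons the St8sia2 share was 54.8% in HFD P21 and 57.0% in chow P21, against 95.4% in HFD P0 and 94.5% in chow P0. The drop in the St8sia2 share from birth to weaning holds under both lengths, since a length is the same in every library.

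**Figure D2:**
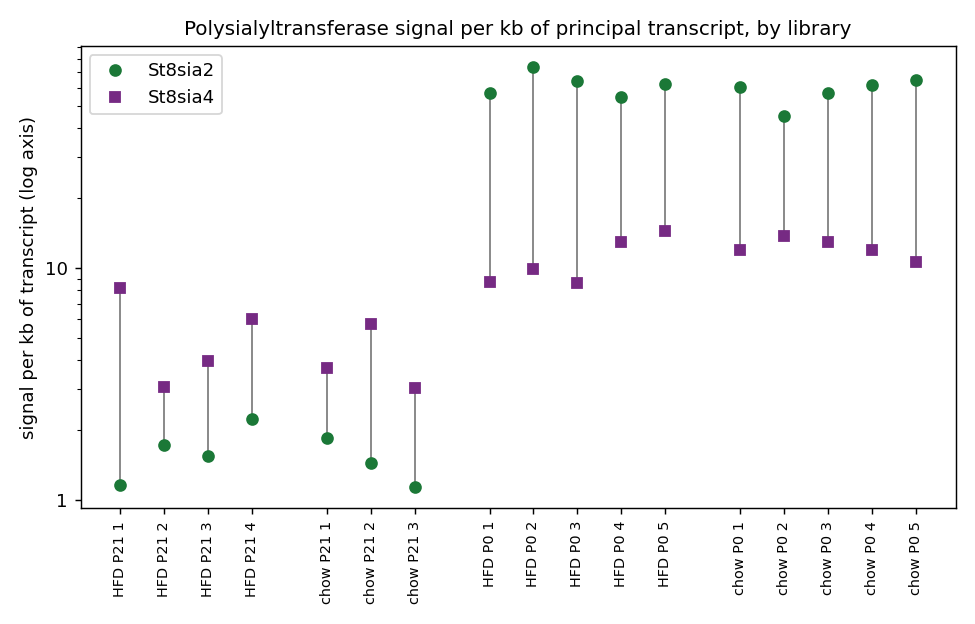
Signal per kb of principal transcript (log axis) of St8sia2 (circles) and St8sia4 (squares) in each library, joined by a line within a library. The circle stands above the square in all 10 P0 libraries and below it in all 7 P21 libraries.

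Ncam1, the main carrier of polysialic acid, lies at chr9:49502136-49798925 (minus strand) and was the most abundant of the 8 genes per kb at both ages. It measured 734, 625, 588 and 699 units in HFD P21 and 562, 588 and 572 in chow P21, against 1109, 1336, 999.9, 1185 and 1488 in HFD P0 and 1099.9, 1203, 1121, 1062 and 1442 in chow P0. The ages did not overlap in either diet. Ncam1 fell by 0.88 ± 0.16 in HFD offspring (SE, limma adjusted p = 0.000457) and fell by 1.04 ± 0.16 in chow offspring (limma adjusted p = 0.000356). Of its annotated exonic bases, 4.81% are shared with Gm11149 on the opposite strand, and the strand setting of the counting is not given in the sources used here.

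Set against its carrier, St8sia2 stood at 0.0153 of the Ncam1 level per kb in HFD P21 and 0.0155 in chow P21, against 0.312 in HFD P0 and 0.298 in chow P0. The St8sia4 to Ncam1 ratio per kb was 0.0474 and 0.0437 in HFD P21 and chow P21, against 0.0538 and 0.0634 in HFD P0 and chow P0, and its ranges overlapped between the ages within each diet. Over all annotated exons this ratio was 0.0182 and 0.0168 in HFD P21 and chow P21, against 0.0207 and 0.0243 in HFD P0 and chow P0. Ncam2, a paralog of Ncam1 best known from olfactory axons, lies at chr16:81200697-81626828 (plus strand). It ranged from 42.4 to 47.2 units in HFD P21 and from 38.5 to 43.3 in chow P21, against 29.3 to 54.9 in HFD P0 and 28.8 to 54.7 in chow P0. The P21 values sat inside the wider P0 range, and the change was 0.22 (95% interval -0.20 to 0.64, limma adjusted p = 0.365) in HFD offspring and 0.0070 (-0.43 to 0.45, limma adjusted p = 0.982) in chow offspring. Ncam1 exceeded Ncam2 per kb 11.8 times in HFD P21 and 11.2 times in chow P21, against 26.0 times in HFD P0 and 23.8 times in chow P0. Over all annotated exons the same ratio was 19.0 and 18.1 in HFD P21 and chow P21, against 42.1 and 38.5 in HFD P0 and chow P0.

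Among the L1 family, Chl1 (close homolog of L1, chr6:103510586-103750211, plus strand) was lower at P21 in both diets. It measured 119, 120.2, 154 and 103 units in HFD P21 and 124, 144 and 73.1 in chow P21, against 324, 317, 263, 267 and 274 in HFD P0 and 333, 357, 228, 188 and 192 in chow P0. The ages did not overlap, and the lowest value of all was chow P21 replicate 3. Chl1 fell by 1.22 ± 0.15 in HFD offspring (SE, limma adjusted p = 1.80e-05) and fell by 1.19 ± 0.26 in chow offspring (limma adjusted p = 0.00350). Without chow P21 replicate 3 the chow change was -0.90 (limma adjusted p = 0.0228).

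Nrcam, which gathers channels at nodes and initial segments of axons (chr12:44328885-44601964, plus strand), went the other way in HFD offspring. It measured 250.3, 228, 206 and 230.3 units in HFD P21 and 137, 171 and 162 in chow P21, against 102, 76.1, 109, 129 and 205.5 in HFD P0 and 109, 107, 170.0, 126 and 189.8 in chow P0. The HFD ages were separated, though HFD P0 replicate 5 came within 1 unit of the lowest P21 value, and the chow ages overlapped. Nrcam rose by 0.95 ± 0.23 in HFD offspring (SE, limma adjusted p = 0.00320), and its change in chow offspring was 0.19 ± 0.20 (limma adjusted p = 0.488). The difference between those changes, the diet by age interaction, was 0.76 ± 0.33 (SE, limma adjusted p = 0.281). Leaving out each library in turn gave an interaction of 0.60 to 0.96, which passed in 1 of 17 fits. That fit was without HFD P0 replicate 5 (0.96, limma adjusted p = 0.0483), and it called 557 genes, against 4 in the main fit. Per kb, Nrcam stood at 2.28 times Chl1 in HFD P21 and 1.81 times in chow P21, against 0.531 in HFD P0 and 0.730 in chow P0.

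L1cam (chrX:73853778-73896105, minus strand) varied widely at birth, with a coefficient of variation of 65.7% in HFD P0 and 34.8% in chow P0. It measured 234, 183, 189 and 246 units in HFD P21 and 168, 177 and 148 in chow P21, against 167, 198, 187, 184 and 566 in HFD P0 and 178, 241, 306, 379 and 451 in chow P0. The chow ages just failed to touch, and the HFD ages overlapped. L1cam fell by 0.85 ± 0.25 in chow offspring (SE, limma adjusted p = 0.0190), and its change in HFD offspring was -0.13 ± 0.29 (limma adjusted p = 0.743). The chow call was lost without chow P21 replicate 1 (limma adjusted p = 0.0503) or replicate 3 (limma adjusted p = 0.0717). In HFD offspring the sign rested on 1 library, since the change was 0.20 without HFD P0 replicate 5 (limma adjusted p = 0.203). The interaction was 0.72 ± 0.43 (SE, limma adjusted p = 0.440).

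The spread of L1cam at birth ran beside Pomc. In chow P0 both genes kept the same order over the 5 libraries, which was also the order of the replicate numbers. HFD P0 replicate 5, the highest for L1cam, was also the highest HFD library for Pomc. Summed mature neuron signal was likewise highest in replicate 5 of each diet at P0 (3103 units in HFD, 3012 in chow). Chl1 was lower in the 3 Pomc-rich chow libraries (188 to 228 units) than in the other chow libraries (333 and 357 units), but HFD P0 replicate 5 (274 units) lay within the range of the other HFD libraries. Nrcam was highest in HFD P0 replicate 5 and chow P0 replicate 5. The part of the Pomc difference, the replicate order or the mature neuron signal in these values was not tested.

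**Figure D3:**
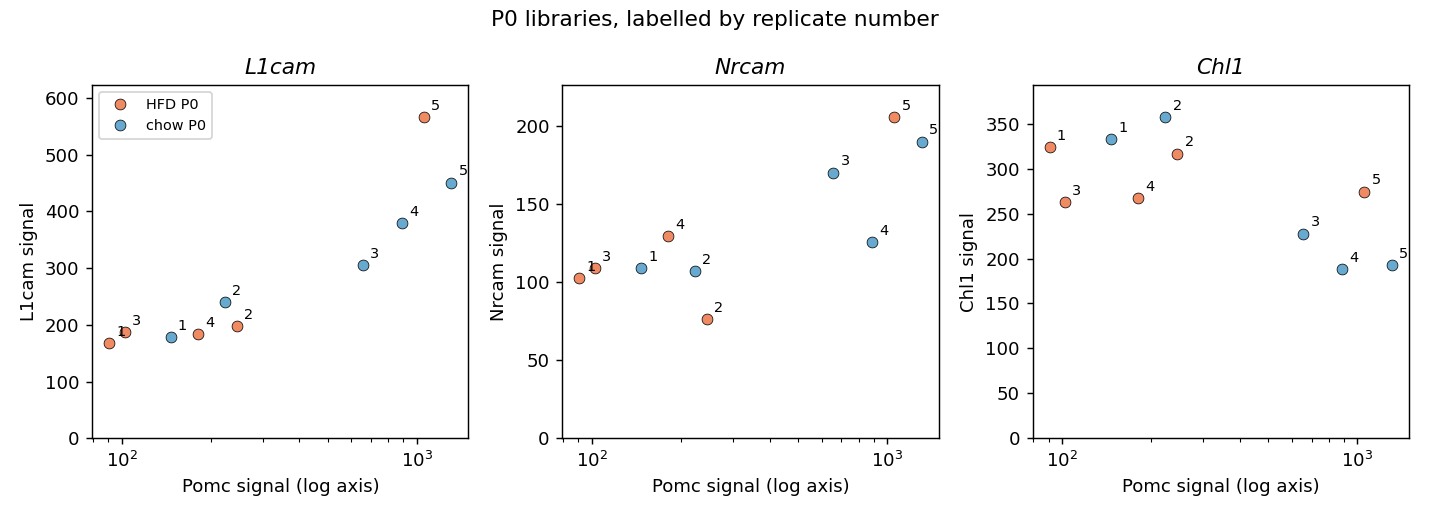
Signal of L1cam, Nrcam and Chl1 (vertical, from 0) against Pomc (horizontal, log axis) in the P0 libraries, HFD and chow, with replicate numbers. L1cam stands at 566 units in HFD P0 replicate 5 (Pomc 1057 units) and at 167 to 198 units in the other HFD libraries (Pomc 90.7 to 246 units).

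Cntn2 (chr1:132509427-132543256, minus strand) ranged from 45.1 to 52.7 units in HFD P21 and from 38.2 to 52.8 in chow P21, against 24.8 to 46.5 in HFD P0 and 24.2 to 56.0 in chow P0. In HFD offspring only P21 replicate 2 (45.1 units) lay inside the P0 range, and the other P21 libraries lay above it. In chow offspring the P21 libraries lay inside the P0 range, toward its top. The ages thus overlapped in both diets. Cntn2 rose by 0.57 ± 0.21 in HFD offspring (SE, limma adjusted p = 0.0386), and its change in chow offspring was 0.51 ± 0.25 (limma adjusted p = 0.135). The HFD call was lost in 7 of 9 fits that left out 1 library, and the chow change passed without chow P0 replicate 3 (0.70, limma adjusted p = 0.0193).

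Of the 8 genes, 4 fell and 2 rose with age in HFD offspring, where 50.9% of all genes tested were called (26.2% lower, 24.7% higher). In chow offspring 5 fell and none rose, where 36.1% were called (17.7% lower, 18.3% higher). The age groups did not overlap for 5 of the 8 in HFD offspring (38.7% of all genes) and for 5 of the 8 in chow offspring (37.2% of all genes). The median change of the 8 was -0.50 in HFD and -0.94 in chow offspring, beside -0.054 and -0.011 over all genes. The calls on St8sia2, St8sia4, Ncam1 and Chl1 in both diets, and on Nrcam in HFD offspring, held in every fit that left out 1 library.

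Cell markers moved with age as well. All 8 markers of immature neurons fell in both diets (median change -3.25 in HFD and -3.04 in chow), with summed signal of 3674 to 4192 units in HFD P21 and 3483 to 3713 in chow P21, against 14786 to 17796 in HFD P0 and 14622 to 20885 in chow P0. All 8 markers of myelinating oligodendrocytes rose (median change 4.89 in HFD and 5.60 in chow), with summed signal of 3848 to 7165 units in HFD P21 and 7970 to 17822 in chow P21, against 147 to 286 in HFD P0 and 168 to 761.7 in chow P0. Of 8 mature neuron markers, 5 rose in HFD and 4 in chow offspring. The part of these markers in the age changes of the 8 genes was not tested.

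**Figure D4:**
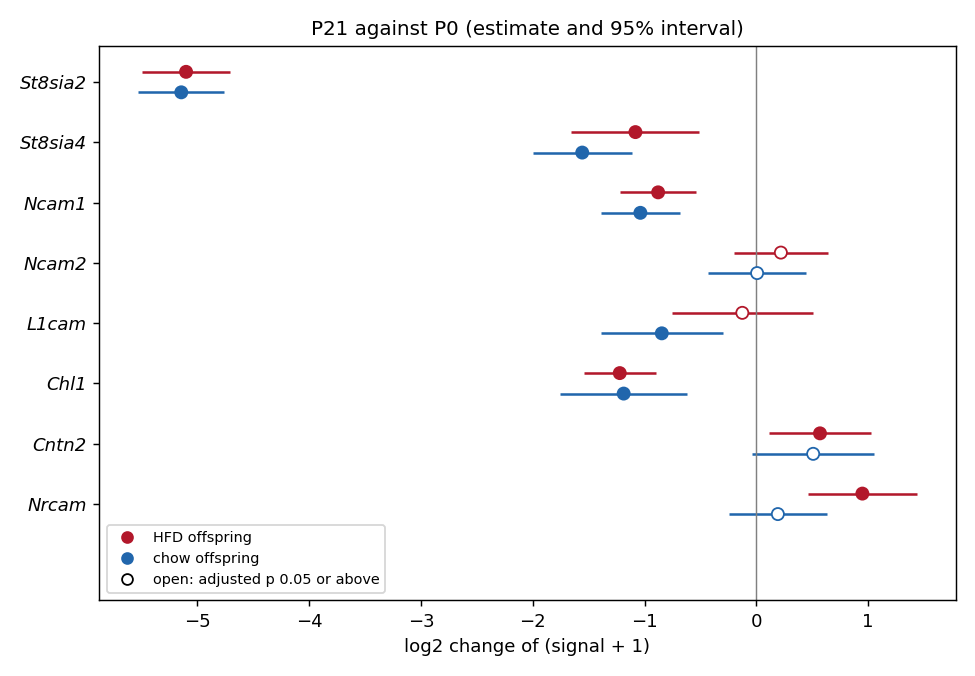
Change in P21 against P0 on log2(signal + 1) for each gene, with 95% intervals, in HFD offspring and chow offspring. Filled points have a limma adjusted p below 0.05, and the St8sia2 points at -5.10 and -5.14 lie far from the other genes, which run from -1.56 to 0.95.

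The comparison of HFD with chow at P0 asks whether the dam's diet marked these genes at birth. None of the 8 was called, where 0.291% of 14086 genes were (41 genes by limma, and 1307 with an unadjusted limma p under 0.05). On reads of every library, which were sharply recovered in only 6 of the 17, edgeR called 33 genes. On recovered reads alone (2 HFD and 3 chow libraries) it called 3. None of the 8 separated the diets, where 2.45% of genes did. St8sia2 changed by 0.11 (95% interval -0.19 to 0.41) and St8sia4 by -0.19 (-0.55 to 0.18). Ncam1 changed by 0.040 (-0.31 to 0.39) and Ncam2 by -0.090 (-0.53 to 0.35). The intervals were wider for L1cam, -0.36 (-1.04 to 0.33), Nrcam, -0.21 (-0.73 to 0.30), and Cntn2, 0.026 (-0.51 to 0.56). Chl1 changed by 0.20 (-0.20 to 0.60). The limma adjusted p-values ran from 0.782 to 0.988. Leaving out each library in turn gave -0.68 to -0.21 for L1cam. The value of -0.68 (limma adjusted p = 0.132) came without HFD P0 replicate 5, the HFD library highest in Pomc. Estimates were below 0 for 6 of 8 POMC neuron, 7 of 8 mature neuron and 11 of 12 other hypothalamic neuron markers. The same held for 6 of 8 immature neuron, 7 of 8 astrocyte and tanycyte, and 4 of 6 oligodendrocyte precursor markers. All 5 myelinating oligodendrocyte markers tested were below 0 too (median change -0.49). All 5 fibroblast and meninges markers were above 0. Above 0 were 5 of 8 microglia, 5 of 8 endothelial and mural, and 3 of 5 choroid plexus and ependyma markers. None of these markers was called, and their part in the estimates was not tested.

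At P21 none of the 8 was called either, where 0.178% of 14070 genes were. That was 25 genes by limma, beside 15 by edgeR on reads of every library and 2393 with an unadjusted limma p under 0.05. All 8 estimates were above 0, with a median of 0.18 beside -0.019 over all genes tested. The diets did not overlap for Ncam1, L1cam and Nrcam, as for 16.1% of all genes. Nrcam averaged 229 ± 18.2 units in HFD P21 and 157 ± 17.3 in chow P21 (SD, n = 4 and n = 3), a change of 0.54 ± 0.13 (SE, 95% interval 0.25 to 0.84, limma adjusted p = 0.103). Leaving out each library in turn gave 0.45 to 0.61. L1cam averaged 213 ± 31.7 units in HFD P21 and 164 ± 14.7 in chow P21, a change of 0.36 (0.039 to 0.69, limma adjusted p = 0.247). Ncam1 averaged 661 ± 66.9 units in HFD P21 and 574 ± 13.1 in chow P21, a change of 0.20 (-0.073 to 0.47, limma adjusted p = 0.442).

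The enzymes had the widest intervals at weaning, 0.15 (-0.49 to 0.79) for St8sia2 and 0.29 (-0.43 to 1.00) for St8sia4. Chl1 changed by 0.17 (-0.32 to 0.65), Ncam2 by 0.12 (-0.22 to 0.47) and Cntn2 by 0.086 (-0.29 to 0.46). Markers of cell types had other values in HFD P21 than in chow P21 as well. Of 8 POMC neuron markers, 7 had estimates above 0 (median change 0.53) and 1 was called, Cartpt, a peptide gene of these neurons named after its values were seen (1.91, limma adjusted p = 0.0137). Their summed signal was 10346 to 13336 units in HFD P21 and 5101 to 12866 in chow P21. No marker of the cell types that follow was called. The median change was -1.15 for myelinating oligodendrocytes, -0.98 for their precursors, -0.88 for endothelial and mural cells, -0.85 for microglia and -0.81 for astrocytes and tanycytes. Of 8 mature neuron markers, 7 had estimates below 0 (median change -0.18), as had 7 of 12 markers of other hypothalamic neurons (-0.086). Of 8 immature neuron markers, 4 lay above 0 and 4 below (0.049). Summed myelin signal was 3848 to 7165 units in HFD P21 and 7970 to 17822 in chow P21, with no overlap. The part of these markers in the estimates was not tested. The comparison of diets at P21 and that of ages within each diet share their P21 libraries.

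**Figure D5:**
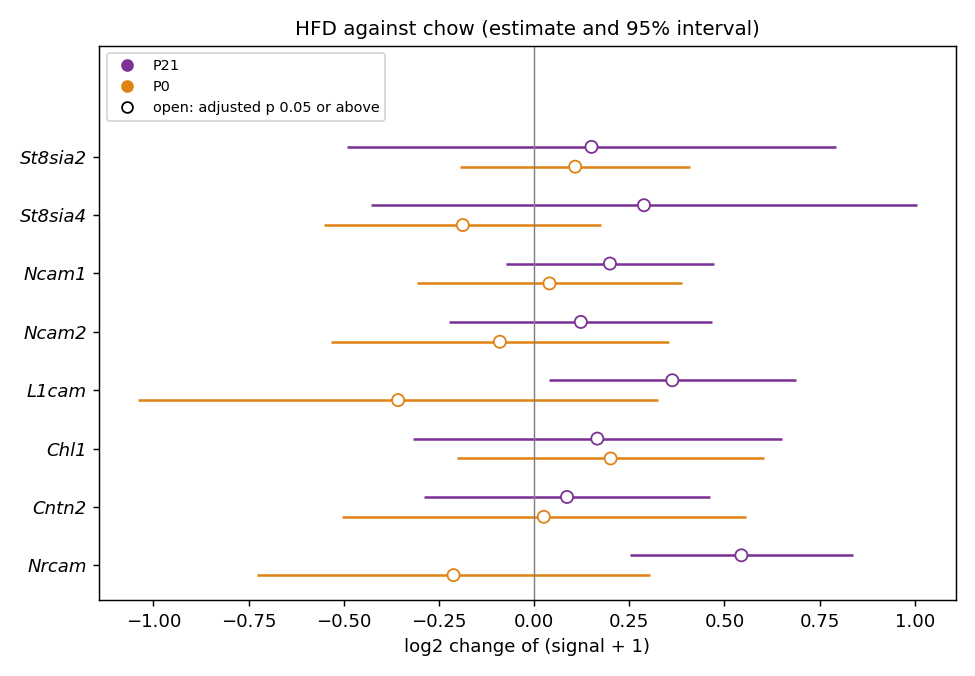
Change in HFD against chow on log2(signal + 1) for each gene, with 95% intervals, at P21 and at P0. All points are open, since no limma adjusted p was below 0.05, and the P21 intervals of Nrcam (0.25 to 0.84) and L1cam (0.039 to 0.69) lie above 0.

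As a test of whether diet altered the age change, the interaction called none of the 8 genes, where 0.0266% of 15037 genes were called. That was 4 genes by limma, beside 14 by edgeR on reads of every library and 2290 with an unadjusted limma p under 0.05. Apart from Nrcam and L1cam, the estimates ran from -0.035 for Chl1 to 0.48 for St8sia4. For St8sia2 the interval was -0.49 to 0.57 around 0.043.

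Per kb of the principal transcript, the order of levels at P21 was Ncam1, L1cam, Nrcam, Chl1, Ncam2, Cntn2, St8sia4 and St8sia2 in both diets. Ncam1 led with 109 ± 11.1 units per kb in HFD P21 and 94.8 ± 2.16 in chow P21, against 202 ± 31.7 in HFD P0 and 196 ± 25.2 in chow P0 (SD). At P0 St8sia2 (62.3 ± 7.41 units per kb in HFD, 57.9 ± 7.47 in chow) stood near L1cam (51.0 ± 33.5 in HFD, 60.8 ± 21.1 in chow), and the ranges overlapped. In HFD P0 that overlap rested on replicate 5, without which every L1cam value lay below every St8sia2 value. By mean, Chl1 and Nrcam followed, then St8sia4, Ncam2 and Cntn2. Chl1 overlapped L1cam in both diets at P0, and the HFD P0 mean of L1cam includes the high replicate 5 (110.8 units per kb). In chow P0 Chl1 also overlapped Nrcam and St8sia2, and in HFD P0 St8sia4 overlapped Nrcam. St8sia4 and Ncam2 overlapped in range at P0, as did Ncam2 and Cntn2, in both diets. At P21 the ranges of L1cam and Nrcam overlapped in HFD but not in chow, and St8sia4 overlapped Cntn2 in both diets. The order of the lower genes depends on the length used. Over all annotated exons Cntn2 stood above Ncam2 at P21 in both diets (5.31 against 4.01 units per kb in HFD, 5.04 against 3.67 in chow), with no overlap. By that length St8sia4 had the lowest mean of the 8 in all groups. It averaged 1.42 and 1.12 units per kb in HFD P21 and chow P21, against 2.93 and 3.28 in HFD P0 and chow P0. Its range overlapped that of St8sia2 at P21, and those of Ncam2 and Cntn2 at P0, in both diets.

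Genes that act with these proteins were read from lists that share no member with the 8. Their counts stand beside the shares of all genes tested, 24.7% higher and 26.2% lower with age in HFD offspring, and 18.3% higher and 17.7% lower in chow offspring, and several are near them. Of 12 genes that supply, attach or remove sialic acid, 5 rose and 1 fell with age in HFD offspring, and 4 rose and 1 fell in chow offspring. Neu4, a sialidase that in mouse can cleave polysialic acid, averaged 13.1 units in HFD P21 and 26.9 in chow P21, against 0.392 in HFD P0 and 0.488 in chow P0. It rose by 3.42 in HFD (limma adjusted p = 1.75e-06) and by 4.26 in chow offspring (limma adjusted p = 3.55e-06). Neu1, the lysosomal sialidase, rose by 1.22 and 1.07 in HFD and chow offspring. Nans, the synthase of sialic acid, fell by 0.66 in HFD and fell by 1.02 in chow offspring, and 29.6% of its exonic bases are shared with Trim14 on the opposite strand. St8sia3, which makes shorter sialic acid chains, rose by 0.80 in HFD offspring.

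Of 10 further L1-family, contactin and Cntnap genes, 4 rose and 2 fell in HFD offspring, and 3 rose and 2 fell in chow offspring. Cntnap1, part of the junction between axon and myelin, averaged 21.9 units in HFD P21 and 27.8 in chow P21, against 1.01 in HFD P0 and 2.53 in chow P0. It rose by 3.48 in HFD and 3.19 in chow offspring, together with its partner Cntn1 (0.76 and 0.75) and the L1-family gene Nfasc (1.05 and 1.15). Cntn5 fell by 2.10 in HFD and fell by 1.56 in chow offspring.

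A list of 11 genes held the scaffold Dlg1 and ankyrin, spectrin and ERM genes, which tie L1-family proteins to the membrane skeleton. Of these 11, 1 rose and 5 fell in HFD offspring, while 1 rose and none fell in chow offspring. The gene that rose was Dlg1, a synaptic scaffold (2.13 in HFD and 1.36 in chow), so no ankyrin, spectrin or ERM gene was called higher. Those that fell in HFD offspring included the ankyrins Ank2 (-2.33) and Ank3 (-1.17) and the spectrins Sptan1 (-2.30) and Sptbn1 (-2.49). The age groups of these 4 genes overlapped, and in chow offspring they ran from -0.77 to -0.17. The interaction was -2.13 for Sptan1 (limma adjusted p = 0.302), so a difference between the diets did not pass.

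Of 14 signalling partners, 4 rose and 7 fell in HFD offspring, and 3 rose and 4 fell in chow offspring. Ncan, the brain proteoglycan neurocan that binds Ncam1 and L1cam, averaged 52.9 units in HFD P21 and 73.5 in chow P21, against 335 in HFD P0 and 331 in chow P0. It fell by 2.66 in HFD and fell by 2.17 in chow offspring. Ptprz1, a receptor phosphatase, fell by 1.28 in HFD and fell by 0.93 in chow offspring. Prnp, the prion protein, which binds Ncam1, rose by 1.55 and 1.56. Of 6 shedding proteases in the table, 1 rose and 3 fell in each diet, with Bace2 higher (1.29 in HFD, 1.53 in chow) and the gelatinase Mmp9 lower (-1.99 in HFD, -1.37 in chow).

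No gene of these 5 lists was called in HFD against chow at P21 or P0, or in the interaction. The smallest limma adjusted p at P21 was that of Sptan1, with a change of -1.07 (limma adjusted p = 0.0792), and at P0 that of Ptpra, a phosphatase of Ncam1 signalling, with -0.85 (limma adjusted p = 0.0963). At P21 Neu4 changed by -0.95 (limma adjusted p = 0.121) beside the lower myelin markers, and St8sia3 by 0.41 (limma adjusted p = 0.186).

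The genes most like each of the 8 were read from the root-mean-square distance between centred log2 profiles over the 17 libraries, among 15036 genes. For St8sia2 they were Trim67 (distance 0.455), Gpc2 (0.500) and B3gnt5 (0.520), where the median gene stood at 2.54. Trim67 averaged 3.13 units in HFD P21 and 4.94 in chow P21, against 175 in HFD P0 and 159 in chow P0. On the same strand, an unnamed gene model shares 55.6% of the Gpc2 exonic bases. For Ncam1 the nearest were Tox (0.129), Ppm1g (0.155) and Trim46 (0.163), and for Chl1 they were Tenm2 (0.194), Mtss1 (0.226) and Map1b (0.231). L1cam was nearest to Usp22 (0.197), Maged2 (0.214) and Trim35 (0.230), and Nrcam to Ecd (0.158), Cog4 (0.162) and Riok2 (0.169). St8sia4 was nearest to Zfp184 (0.281), L3mbtl3 (0.287) and Cep170 (0.303), Ncam2 to Pcid2 (0.167), Htra2 (0.170) and Mrpl37 (0.182), and Cntn2 to Prmt10 (0.211), Porcn (0.213) and Oat (0.227). Among the 8 themselves, St8sia2 stood apart, its nearest member being St8sia4 at 1.93, while the other 7 had a member within 0.337 to 0.464. For those 7 the median gene stood at only 0.571 (Ncam2) to 0.853 (St8sia4). These distances share libraries and depth, so they describe likeness only.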

How the data were processed

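RNA from HA pulldowns of POMC RiboTag mediobasal hypothalamus was sequenced as single reads of 50 bases on a HiSeq 2500 from Nextera XT libraries, per the labels' protocols. HTSeq 0.6.1, TopHat2 2.0.13, Picard 1.80, edgeR and FastQC are named with build mm10, per the submitters' processing notes. The authors deposited normalized signal rounded to 2 decimals, close in scale to CPM, with column sums from 0.908 to 1.10 M. For the settings, the strandedness and the filter on genes, nothing is given in the sources used here. From the values, 99.95% to 100% of non-zero values lay at whole reads within rounding (22.4% to 36.5% for random values), where 1 read was worth 0.0275 to 0.0460 units. Depth was 31.9 ± 0.706 M reads in HFD P21, 31.3 ± 7.82 in chow P21, 26.6 ± 5.34 in HFD P0 and 27.2 ± 3.20 in chow P0 (SD). In 6 libraries the steps were sharp enough to recover reads.

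On log2(value + 1), limma with its intensity trend (version 3.58.1, R 4.3.3) gave two-sided p-values, Benjamini-Hochberg adjusted over all genes tested and called at 0.05. Fold changes on this scale understate changes of low genes. Genes entered a fit if they exceeded 1 in a number of libraries no lower than the size of the smaller group, and all 8 genes passed in every comparison. Diet and age comparisons used their own libraries, and the interaction used all 17. The count test foreseen for whole reads was run only as an alternative, with edgeR 4.0.16. The alternatives were a pseudocount of 0.25, no filter, median-of-ratios scaling, a fit of all 17 libraries, a replicate block, edgeR on recovered reads and leaving out each library. After seeing the data, edgeR on reads of every library and limma on the recovered libraries were added. The fitting was tested on simulated data.

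Members, context lists and markers were chosen with earlier results of these data known. Named were the 8 members, Pomc, the 3 context genes with the smallest p per list and comparison, and the 3 most alike genes per member. Members beyond these that passed the test in a list (Cntn1, Cntn5, Nans, St8sia3, Ptprz1, Ank2, Ank3 and Sptbn1 in comparisons where they were not among the 3) were named after their values were seen. Levels per kb used the longest APPRIS principal transcript of GENCODE M21, and all annotated exons as the alternative. RefSeq promoter windows matched 7 of the 8 genes. Of the named context and alike genes, 6 share over 10% of their exonic bases with another gene. A gene that the naming rule selected from a context list is not reported here.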

Additional observations from a re-analysis of the deposited data

Results flagged for a closer look

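Of 24 sets of 4 or 5 libraries examined over the 8 genes, 1 held a library far from the rest. L1cam measured 566.34 units in HFD P0 replicate 5 and 167 to 198 units in the other 4 HFD P0 libraries. On log2(value + 1) the gap took up 0.864 of the range of the group, above the critical value of 0.71 for 5 libraries. Chance alone gives such a gap in about 1 in 20 sets. Pomc in that library was 1057 units, against 90.7 to 246 units in the other HFD P0 libraries, and its part in the L1cam value was not tested.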

How the results depend on the processing

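The calls on St8sia2 and St8sia4 with age held under every alternative run. The number of genes called in HFD against chow at P0 (41) was 10 with all 17 libraries in 1 fit, 104 with the replicate block, 3 by edgeR on recovered reads, 24 by limma on the same libraries, and 18 to 135 with 1 library left out (135 without HFD P0 replicate 5). At P21 (25) it was 16 without a filter, 3 with the block, 15 by edgeR on every library and 3 to 51 with 1 library left out. For age in chow offspring (5251) it was 953 by edgeR and 1070 by limma on the recovered reads of 1 P21 and 3 P0 libraries, where the lone library is assumed to vary like the others and 2 of the 8 genes (St8sia2 and St8sia4) were called. Leaving out 1 library gave 3912 to 5161 genes and 4 to 6 of the 8 in chow, and 6417 to 8119 genes and 5 to 6 of the 8 in HFD offspring. The interaction (4) gave 133 with the block, 14 by edgeR on every library and 2 to 557 with 1 library left out (557 without HFD P0 replicate 5), and then 0 to 1 of the 8.

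Signs turned only for values that had not passed. At P0 St8sia2 was -0.023 by limma on recovered libraries, and Ncam1 was -0.067 by edgeR and -0.10 by limma there. Ncam2 was -0.024 for age in chow by edgeR on every library. With the block L1cam was 0.20 for age in HFD offspring and Chl1 0.063 for the interaction. With 1 library left out the ranges were, at P0, -0.034 to 0.11 for Ncam1, -0.22 to 0.0087 for Ncam2 and -0.10 to 0.22 for Cntn2, and, at P21, -0.0026 to 0.31 for St8sia2, -0.12 to 0.36 for Chl1 and -0.052 to 0.18 for Cntn2. For age they were -0.12 to 0.11 for Ncam2 in chow and -0.24 to 0.20 for L1cam in HFD offspring, and for the interaction -0.11 to 0.20 for St8sia2, -0.32 to 0.16 for Chl1 and -0.13 to 0.18 for Cntn2. The causes were not tested.

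The labels do not say whether replicate numbers pair the samples. Between the diets, correlations of same-numbered deviations ran from -0.17 to 0.49 at P0 and from -0.04 to 0.10 at P21. At P0 the best chow match had the same number for HFD replicates 1, 2 and 5, but not for 3 and 4. These correlations therefore neither show nor exclude pairing. Under the replicate block L1cam lost its call with age in chow (-0.52, limma adjusted p = 0.0681). edgeR on every library lost Cntn2 with age in HFD offspring (0.54, edgeR adjusted p = 0.0534). edgeR on recovered reads was not run at P21, for age in HFD offspring or for the interaction, which had too few recovered libraries. With 3 to 5 libraries a group, the diet intervals of St8sia4 and L1cam reach 1 log2 unit in size. Of the 8 genes, St8sia2 had the fewest reads at P21, 177 to 358 per library in HFD and 132 to 334 in chow.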
